A study of Homo sapiens with 12 samples.

Results

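Cassette exons are internal exons that a transcript either includes or skips. The exons described here are longer than 51 bases and have a length that 3 does not divide, so that including or skipping them would move a reading frame that runs through them. They were taken from the deposited table of skipped exon events by 2 further criteria, on average 20 or more reads in a library over both forms and a rarer form that made up at least 5% of all reads. These criteria used the 6 RNA libraries pooled and did not use the difference between treatments. They left 7373 events of 97457 in the table, which is 54.7% of the 13469 skipped exon events that passed the same read criteria at any length. An event is 1 exon with 1 pair of neighbouring exons, and the 7373 events held 5891 exons of 3621 genes.

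The cells were wild-type T-47D, an established human breast cancer line that carries the oestrogen receptor. Both groups compared were cultures of this 1 line grown in serum-containing medium, and they differed in the agent added. One group received palbociclib, an inhibitor of the cell cycle kinases CDK4 and CDK6, at 1 µM for 24 h, and the other received its solvent DMSO for 24 h. Each group had 3 biological replicates for RNA sequencing and 3 for ATAC-seq, an assay of open chromatin. The design asks whether the drug changed how often an exon was included.

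In a coding transcript, an exon of such a length often brings a stop codon into the reading frame or moves the frame downstream of it. Transcripts with an early stop are commonly degraded by nonsense-mediated decay, and several splicing factors limit their own levels through such poison exons. The length alone does not say which form is the productive one, whether the exon is coding, or whether the host gene makes a protein.

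The 74-base exon of CEP290, a gene for a centrosome and cilium protein, is printed as an example of how such an exon reads in each frame. It was chosen after its values were seen, from the 35 exons that lay wholly inside a RefSeq gene-start window (GRCh38.p14), and it stands for the feature, not for the drug response. It lies on the minus strand at chr12:88054340-88054413, and capitals mark every TAA, TAG or TGA.
CEP290 exon: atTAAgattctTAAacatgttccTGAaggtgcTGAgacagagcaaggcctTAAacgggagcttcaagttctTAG
All 6 stop triplets fall in the third of the 3 possible frames, and the other two frames hold none. Its inclusion level was 0.818 ± 0.0312 in DMSO and 0.799 ± 0.0490 with palbociclib (SD, n = 3 each), and the edgeR adjusted p was 0.943. The groups overlapped. Sequences of the exons that changed were not used here.

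Over the events that passed the read criteria, the exon was mostly the less common choice. Inclusion level is the share of transcripts that hold the exon, from 0 to 1, after each form's reads are divided by its length. A level in every library was available for 7372 events, and the last, in NPIPA6, had no reads in 1 library of each group. The median inclusion level was 0.344 in DMSO and 0.341 with palbociclib, and the 6 library medians ran from 0.333 to 0.342. In DMSO, 27.1% of the events had an inclusion level under 0.1 and 4.41% had one over 0.9. The 4898 frame-preserving events over 51 bases, chosen by the same read criteria, had a median of 0.411 in DMSO and library medians from 0.382 to 0.406. The medians of the frame-shifting events thus lay below those of the frame-preserving events in all 6 libraries, and this difference was not tested.

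**Figure D1:**
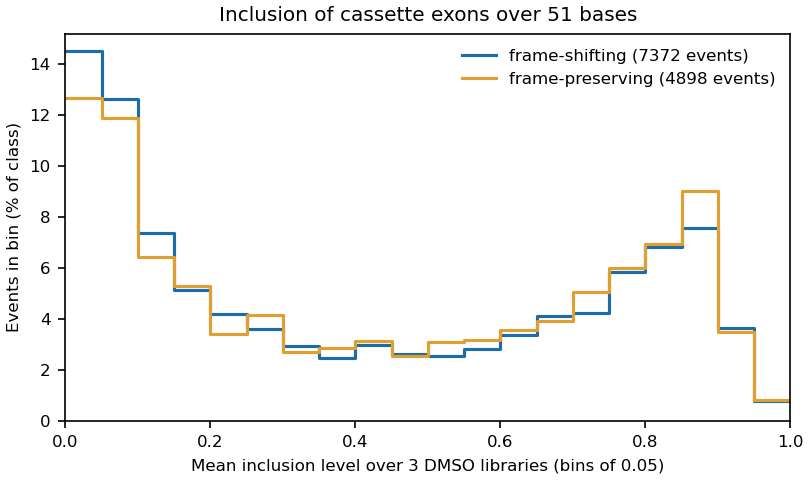
Share of events (%) in each bin of mean inclusion level over the 3 DMSO libraries, for frame-shifting and frame-preserving cassette exons over 51 bases. Both curves are highest at low inclusion, and 27.1% of the frame-shifting and 24.5% of the frame-preserving events lie under 0.1.

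The exons had a median length of 124 bases, with quartiles of 94 and 175 and a longest of 4826. A remainder of 1 after division by 3 was left by 2923 exons and a remainder of 2 by 2968. The introns on either side had medians of 2294 bases before and 2440 after the exon, in the direction of transcription. Most exons, 4836, had 1 event, and 1055 had 2 or more, so events of 1 exon share reads. The gene with the most exons in the set was PVT1, a long non-coding RNA, with 19. At the edges of the rule, 80 events had exons of 52 or 53 bases and 88 tested events had exons of 49 or 50 bases. On reads, 140 events had a mean of 20 to 21 and 156 otherwise qualifying events a mean of 19 to 20, and on the rarer form 343 events lay at 5% to 5.5% and 403 at 4.5% to 5%.

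Few of these events were called as changed with palbociclib by a test across all 13469 events. A count of calls is not a count of the exons that changed. Reads of both forms were compared by quasi-likelihood in edgeR, and at a Benjamini-Hochberg adjusted p under 0.05 this called 12 events with higher and 10 with lower inclusion, in 20 genes. Over all skipped exon events tested, 0.312% were called, 0.163% as higher and 0.148% as lower, and the 22 calls made up 0.298% of the frame-shifting events. The shares were thus close to the background. Of the 7373 events, 5 were called with a change of at least 0.1 in inclusion level, against 14 of all 13469 tested events (0.104%). In 1109 of the 7373 events the libraries of both groups lay wholly apart, 15% of them, where the background was 14.9%. An unadjusted p under 0.05 was reached by 719 events, or 9.75%, where the background was 9.57%. The median difference was -0.0013 over the frame-shifting and -0.0012 over all tested events.

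The calls lay mostly in deeply read events. Of the 510 events with a mean of at least 500 reads, 18 were called, of the 4261 with 50 to 500 reads 4 were called, and of the 2602 with fewer than 50 reads 0. Those 2602 events had a median SD among DMSO libraries of 0.0853, against 0.0128 at 500 reads or more. The spread between replicates was thus wider in shallow events. Of the 22 called events, 18 met the read criteria in each group taken alone. Those of LARP4, MALAT1 and TPM1 and 1 of NPEPPS met them in 1 group only, and were in the set through the group where their rarer form was higher.

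**Figure D2:**
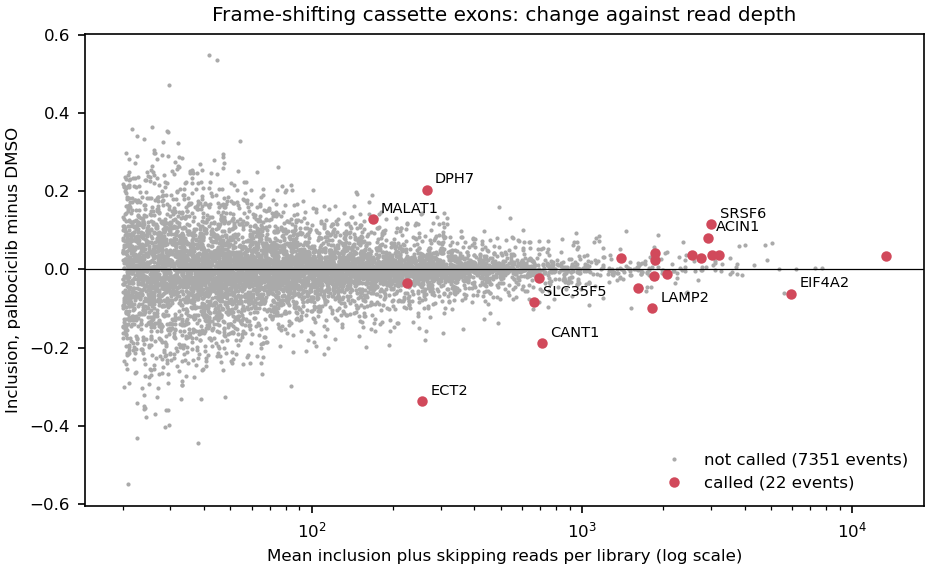
Difference in mean inclusion level (palbociclib minus DMSO, n = 3 each) against the mean number of reads per library (log scale) for the 7372 events with a level in every library. Red points are the 22 called events and grey points the rest, and the spread of the grey points narrows with depth.

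The counts depended on single libraries and on the model. Leaving out DMSO replicate 2 left 6 higher and 1 lower calls, and leaving out palbociclib replicate 2 left 6 and 3. When DMSO replicate 3 was dropped the lower calls came to 3, and when palbociclib replicate 1 was dropped to 5. Calls of at least 0.1 came to 1 on dropping DMSO replicate 2, and to 3 on dropping DMSO replicate 3, palbociclib replicate 1 or palbociclib replicate 2. With TMM normalization the split was 16 higher and 5 lower, so the split moved with the scaling. With the replicate number as a block, edgeR called 25 higher and 25 lower. DESeq2 called 9 and 4, edgeR at 50 or more reads on average 14 and 16, and edgeR with no minimum share of the rarer form 0 and 0, with 141 frame-shifting events at an unadjusted p under 0.05. In the authors' deposited table, 213 of the frame-shifting events had higher and 246 lower inclusion at an FDR under 0.05, where 6.19% of all tested events reached that FDR, and all 22 events called by edgeR were among them.

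In the 3 lists of splicing genes, with 10, 57 and 23 events, 5 exons rose and 0 fell by the edgeR test, where 0.163% of all tested events were called higher and 0.148% lower. Events of these lists were deeper, with medians of 371, 504 and 424 reads against 75.3 over the whole set. Calls lay mostly in deep events, and the part of depth was not tested. The lists were also chosen with earlier results of these data known, so the counts are no test of splicing genes. Positions below are on GRCh38, as the deposited table gives them. Of the SR proteins, which bind exons and promote their use, 2 events of 10 were called higher. For the 268-base exon of SRSF6 (chr20:43459153-43459420, plus strand), the inclusion level was 0.536, 0.559 and 0.536 in DMSO replicates 1 to 3 and 0.685, 0.657 and 0.637 in palbociclib replicates 1 to 3. All 3 palbociclib libraries lay above all 3 DMSO libraries. The difference was 0.116 (edgeR adjusted p = 0.00542), and it fell short of the threshold without palbociclib replicate 2 (edgeR adjusted p = 0.0768). For the 449-base exon of SRSF7 (chr2:38748898-38749346, minus strand), the levels were 0.0882, 0.0933 and 0.0810 in DMSO and 0.133, 0.126 and 0.130 with palbociclib (edgeR adjusted p = 0.0295). The exon was thus rare in both groups, which did not overlap, and its call was lost when any 1 of the 6 libraries was left out (edgeR adjusted p up to 0.135). SRSF7 RNA fell from 102 ± 1.68 to 65.1 ± 1.15 FPKM, while SRSF6 RNA was 142 ± 2.34 and 147 ± 5.25 (SD, n = 3 each). On the log2(FPKM + 1) scale SRSF7 changed by -0.64 (SE 0.03, limma adjusted p = 7.84e-07) and SRSF6 by 0.06 (SE 0.03, limma adjusted p = 0.223).

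HNRNPH1, an RNA-binding regulator of splicing, had 1 called event of the 57 in its list of hnRNPs and other regulators. The inclusion level of its 134-base exon (chr5:179621843-179621976, minus strand) was 0.0516, 0.0507 and 0.0460 in DMSO and 0.0793, 0.0768 and 0.103 with palbociclib (edgeR adjusted p = 0.00297). No library of one group reached the other group, and the call held without each library in turn (edgeR adjusted p up to 0.0261). In the core spliceosome list, 2 of 23 events were called. SNRNP70 encodes a protein of the U1 particle, which recognises the upstream splice site of an intron, and its 1474-base exon (chr19:49102114-49103587, plus strand) had levels of 0.0517, 0.0498 and 0.0506 in DMSO against 0.0828, 0.0863 and 0.0920 with palbociclib (edgeR adjusted p = 0.000535). This call also held without each library (edgeR adjusted p up to 0.0172). The 2 other tested events of SNRNP70, on exons outside the set, were both called too. SF3B1, the branch point factor of the U2 particle, had a 745-base exon (chr2:197418896-197419640, minus strand) at 0.0433 ± 0.00767 in DMSO and 0.0720 ± 0.00268 with palbociclib (SD, n = 3 each; edgeR adjusted p = 0.0178). Its call was lost without DMSO replicate 2 (edgeR adjusted p = 0.171) or palbociclib replicate 2 (edgeR adjusted p = 0.1401). Outside these 3 lists, ACIN1, a component linked to the exon junction complex, had a 1358-base exon (chr14:23067314-23068671, minus strand) at 0.187, 0.214 and 0.197 in DMSO and 0.273, 0.297 and 0.272 with palbociclib (edgeR adjusted p = 0.0127). Each palbociclib library was above each DMSO library, and the call was lost without DMSO replicate 1 (edgeR adjusted p = 0.0695) or palbociclib replicate 2 (edgeR adjusted p = 0.152).

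**Figure D3:**
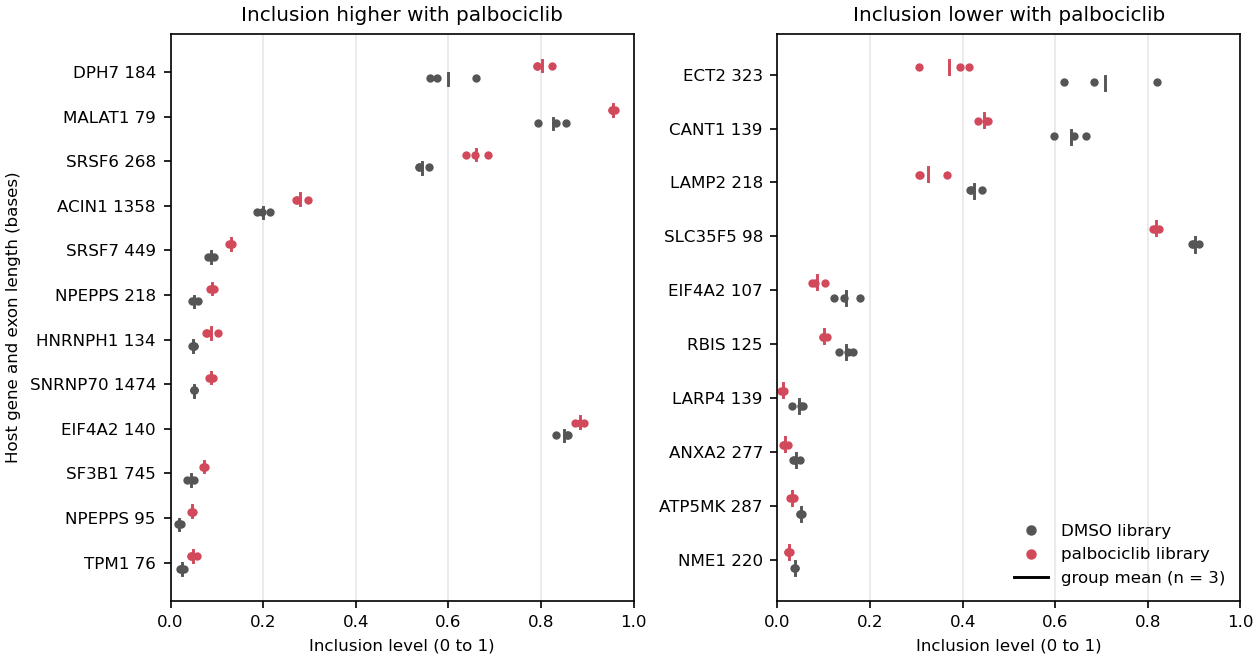
Inclusion level (0 to 1) in each RNA library for the 22 called exons, labelled by host gene and length in bases, with vertical ticks at the group means (n = 3). In every exon the palbociclib libraries (red) lie wholly to one side of the DMSO libraries (grey), and 7 of the 12 that rose started under 0.1.

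Inclusion reads combine reads across the exon's 2 junctions with reads that lie inside the exon, and in SRSF6 these behaved differently. Reads inside the exon made up 95.5% of the inclusion reads of the SRSF6 exon, 94.6% for SRSF7, 90.3% for HNRNPH1 and 97.5% for SF3B1. The shares were as high for SNRNP70, 92.7%, and ACIN1, 97.1%, which kept their calls from junction reads as given below. In SRSF6 the reads inside the exon per 100 skipping reads were 403, 441 and 403 in DMSO and 776, 683 and 631 with palbociclib. Junction reads per 100 skipping reads, as the mean of both junctions, were 12.4, 14.3 and 13.0 in DMSO and 14.2, 13.2 and 10.3 with palbociclib. The reads inside the exon thus separated the groups and the junction reads did not.

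From junction reads alone, the inclusion level of the SRSF6 exon was 0.117 in DMSO and 0.112 with palbociclib (edgeR adjusted p = 0.969), so its direction turned. By the same measure SRSF7 was at 0.0160 and 0.0197 (edgeR adjusted p = 0.788), HNRNPH1 at 0.00702 and 0.00932 (edgeR adjusted p = 0.640) and SF3B1 at 0.00487 and 0.00811 (edgeR adjusted p = 0.587). For these 4 exons the junctions gave no call. The log2 change of the odds of inclusion was 0.70 with all reads and -0.08 from junctions in SRSF6, 0.64 and 0.33 in SRSF7, 0.85 and 0.39 in HNRNPH1, and 0.80 and 0.78 in SF3B1. The lost call of SF3B1 thus came with a change of about the same size. That junction change rested on 15, 6 and 4 reads in DMSO and 16, 12 and 19 with palbociclib, and the groups overlapped. Reads inside an exon come from every transcript that covers those bases, including one that retains the introns beside it, and their source was not tested. SNRNP70 kept its call from junction reads with a log2 odds change of 1.01, against 0.84 with all reads (0.0278 in DMSO and 0.0544 with palbociclib, edgeR adjusted p = 0.0172), as did ACIN1 (0.0398 and 0.0873, edgeR adjusted p = 0.0468). Across the 22 called events, 9 kept the call from junction reads, 5 higher and 4 lower, and 21 kept their direction. Over all tested events 0.141% were called by that measure. The 22 were chosen on counts that hold these same junction and skipping reads, so a higher share was fixed in advance. In MALAT1, TPM1, SLC35F5 and the 95-base exon of NPEPPS no reads lay inside the exon, and both measures used the same reads.

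**Figure D4:**
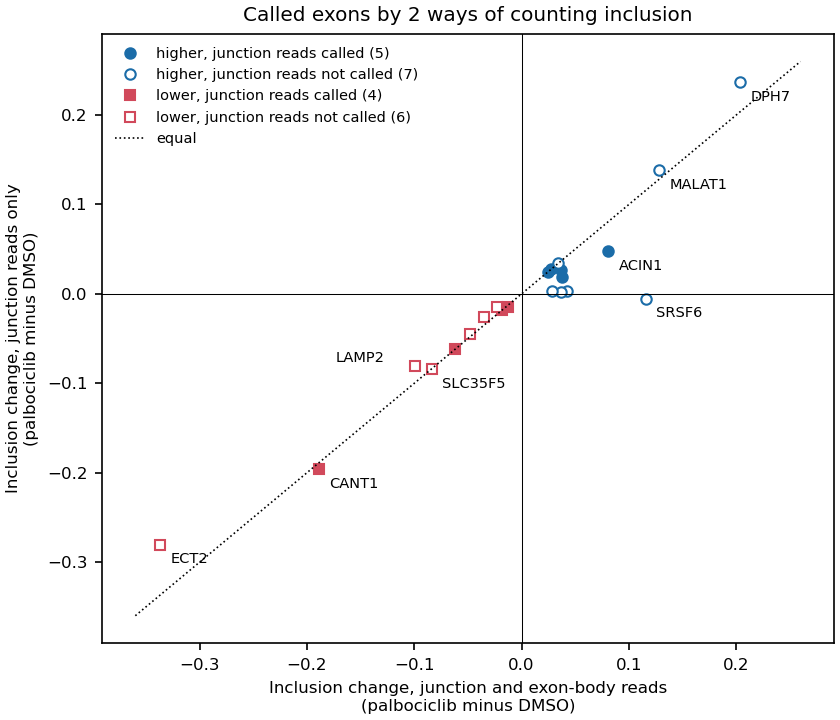
Change in inclusion level (palbociclib minus DMSO, group means of 3 libraries) from junction reads only against the change from junction and exon-body reads, for the 22 called exons. Filled points are the 9 called by both measures, and SRSF6 lies at 0.116 on the horizontal axis and just under 0 on the vertical.

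NPEPPS, which encodes a cytosolic aminopeptidase, had the lowest adjusted p of the called exons. Overlapping exons of 95 and 218 bases that share a start were both called. The 95-base exon (chr17:47619278-47619372, plus strand) had levels of 0.0154, 0.0183 and 0.0231 in DMSO and 0.0443, 0.0472 and 0.0489 with palbociclib (edgeR adjusted p = 1.41e-05). This exon met the read criteria in the palbociclib libraries alone but not in the DMSO libraries alone, so it was in the set through the group where it was high. The 218-base exon (chr17:47619278-47619495, plus strand) was at 0.0516 ± 0.00628 in DMSO and 0.0894 ± 0.00402 with palbociclib (SD, n = 3 each; edgeR adjusted p = 0.000676). In both exons the groups did not overlap, and both calls held without each library and from junction reads (edgeR adjusted p = 1.2e-05 and 3.88e-05). The 95-base exon had no reads inside it, so its junction fit used the same reads. They share a splice site and are not independent. NPEPPS RNA rose from 261 ± 3.13 to 337 ± 14.7 FPKM (limma adjusted p = 8.03e-05). NPEPPS has near-identical copies in the genome, and how reads shared with them were counted is not given in the sources used here.

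TPM1, which encodes the actin-binding protein tropomyosin, had a 76-base exon (chr15:63061713-63061788, plus strand) at 0.0291, 0.0203 and 0.0221 in DMSO and 0.0433, 0.0435 and 0.0574 with palbociclib (edgeR adjusted p = 0.00352). Palbociclib libraries were all the higher ones, and the call held from junction reads (edgeR adjusted p = 0.00293) but was lost without DMSO replicate 2 (edgeR adjusted p = 0.0650). The TPM1 exon met the read criteria in the palbociclib group only, so it was in the set through the group where it was high. It had no reads inside the exon, so the junction fit used the same reads and is no separate support. DPH7, a factor of diphthamide synthesis, had the largest rise of the called exons. Its 184-base exon (chr9:137575709-137575892, minus strand) was at 0.660, 0.575 and 0.561 in DMSO and 0.825, 0.792 and 0.791 with palbociclib (edgeR adjusted p = 0.0381). Every palbociclib library included it more often, on a mean of 266 reads per library, and the call remained only without DMSO replicate 1 among the 6 fits that left out a library (edgeR adjusted p up to 0.171). From junction reads its levels were 0.257 and 0.494 (edgeR adjusted p = 0.35). MALAT1 is a nuclear long non-coding RNA, so its 79-base exon (chr11:65502637-65502715, plus strand) shifts no reading frame, and its inclusion rose from 0.827 ± 0.0303 to 0.955 ± 0.00352 (SD, n = 3 each; edgeR adjusted p = 0.0496). That call rested on a mean of 168 reads per library, the fewest of the 22, and was lost when any 1 library was left out (edgeR adjusted p up to 0.174) and from junction reads (edgeR adjusted p = 0.094). The MALAT1 exon met the read criteria in the DMSO group only, where skipping was more frequent. No reads lay inside the MALAT1 exon, so its junction fit used the same reads and is no separate measure.

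EIF4A2, an RNA helicase of translation initiation, held 2 called exons of this set that moved in opposite directions. Its 1 other tested event, on an exon outside the set, was also called. The 107-base exon (chr3:186788310-186788416, plus strand) fell from 0.121, 0.144 and 0.178 in DMSO to 0.0738, 0.0808 and 0.102 with palbociclib (edgeR adjusted p = 0.0015). The groups did not overlap, and the call held without each library and from junction reads (edgeR adjusted p = 0.00022). The 140-base exon (chr3:186784962-186785101, plus strand), included in most transcripts, rose from 0.850 ± 0.0148 to 0.883 ± 0.0100 (SD, n = 3 each; edgeR adjusted p = 0.0487), on the deepest event of the set with a mean of 13293 reads per library. The call of this second exon remained only without palbociclib replicate 3 when 1 library was left out (edgeR adjusted p up to 0.310), and junction reads gave no call (edgeR adjusted p = 0.129).

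The largest fall was in ECT2, an exchange factor for the GTPase RhoA that acts in cytokinesis, and the 1 called event of 42 in the list of G2 and mitosis genes. Its 323-base exon (chr3:172752150-172752472, plus strand) was at 0.619, 0.820 and 0.684 in DMSO and 0.305, 0.394 and 0.413 with palbociclib. All palbociclib libraries lay below all DMSO libraries, with a mean difference of -0.337 (edgeR adjusted p = 0.00421). From junction reads the levels were 0.563 and 0.282 (edgeR adjusted p = 0.253), and with all reads the call was lost without DMSO replicate 2 (edgeR adjusted p = 0.0650). With another pair of neighbouring exons and more reads, the same exon differed by -0.0209 (edgeR adjusted p = 0.556). Both events thus went the same way and 1 was called, and whether the 2 differed was not tested. ECT2 RNA fell from 133 ± 4.36 to 51.3 ± 0.706 FPKM, a change of -1.35 on the log2(FPKM + 1) scale (SE 0.03, limma adjusted p = 1.13e-08). CANT1, a calcium-activated nucleotidase of the secretory pathway, had a 139-base exon (chr17:78998148-78998286, minus strand) at 0.640, 0.666 and 0.598 in DMSO and 0.450, 0.455 and 0.432 with palbociclib (edgeR adjusted p = 0.00394). The groups did not overlap, and the call held from junction reads (edgeR adjusted p = 0.0172) but not without DMSO replicate 2 (edgeR adjusted p = 0.0744). Its deepest event differed by -0.0915 (edgeR adjusted p = 0.157).

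LAMP2, a lysosomal membrane protein whose last exon is alternative, had a 218-base exon (chrX:120439076-120439293, minus strand) at 0.418, 0.442 and 0.415 in DMSO and 0.305, 0.307 and 0.366 with palbociclib (edgeR adjusted p = 0.0496). The groups did not overlap, and the call remained only without palbociclib replicate 3 (edgeR adjusted p up to 0.271). SLC35F5, a solute carrier, had a 98-base exon (chr2:113717753-113717850, minus strand) that fell from 0.901 ± 0.00779 to 0.817 ± 0.00645 (SD, n = 3 each; edgeR adjusted p = 0.0391), and the call was lost when any 1 library was left out (edgeR adjusted p up to 0.214). RBIS, a ribosome biogenesis factor, had a 125-base exon at 0.149 ± 0.0153 in DMSO and 0.101 ± 0.00526 with palbociclib (SD, n = 3 each; edgeR adjusted p = 0.0496), and the call remained only without DMSO replicate 1 (edgeR adjusted p up to 0.221). LAMP2, SLC35F5 and RBIS were also no longer called with TMM normalization (edgeR adjusted p = 0.141, 0.0744 and 0.119) or from junction reads (edgeR adjusted p = 0.207, 0.0774 and 0.094). The SLC35F5 exon had no reads inside it, so its junction fit used the same reads and is no separate measure.

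The other 4 exons that fell were rare in both groups. LARP4, an RNA-binding protein that stabilises mRNA, had a 139-base exon (chr12:50402675-50402813, plus strand) at 0.0457 ± 0.0121 in DMSO and 0.0111 ± 0.00397 with palbociclib (SD, n = 3 each; edgeR adjusted p = 0.032). ANXA2, a calcium-dependent membrane-binding protein, had a 277-base exon (chr15:60396151-60396427, minus strand) at 0.0393 ± 0.00816 and 0.0164 ± 0.00492 (SD, n = 3 each; edgeR adjusted p = 0.0107). Both calls were lost without DMSO replicates 2 or 3 or palbociclib replicate 2, and that of LARP4 also without palbociclib replicate 1 (edgeR adjusted p up to 0.171 for LARP4 and 0.135 for ANXA2). The LARP4 exon met the read criteria in the DMSO group only, where its inclusion was higher. ATP5MK, a small subunit of the mitochondrial ATP synthase, had a 287-base exon (chr10:103395746-103396032, minus strand) at 0.0502 ± 0.00307 and 0.0320 ± 0.0054 (SD, n = 3 each; edgeR adjusted p = 0.0381). NME1, a nucleoside diphosphate kinase, had a 220-base exon (chr17:51154225-51154444, plus strand) at 0.0371 ± 0.000549 and 0.0241 ± 0.00261 (SD, n = 3 each; edgeR adjusted p = 0.0381). From junction reads LARP4 and ANXA2 were not called (edgeR adjusted p = 0.183 and 0.395), with overlapping groups in ANXA2, while ATP5MK and NME1 were (edgeR adjusted p = 0.0296 and 0.0202). The calls of ATP5MK and NME1 were lost when any 1 library was left out (edgeR adjusted p up to 0.198 and 0.171), and with TMM (edgeR adjusted p = 0.0878 and 0.0894). ANXA2 has near-identical processed copies in the genome, and their part in its counts was not tested.

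Many of the host genes changed in RNA level. Of 3587 host genes tested with limma on log2(FPKM + 1), 870 rose and 902 fell, or 24.3% and 25.2%, where 20.9% of all genes tested rose and 22.9% fell. Of the 20 genes with a called exon, 8 rose and 3 fell. The genes that fell were ECT2, SRSF7 and NME1, and those that rose included MALAT1 (1642 ± 217 to 2166 ± 268 FPKM, limma adjusted p = 0.0187), EIF4A2 (564 ± 31.2 to 666 ± 33.8 FPKM, limma adjusted p = 0.00522) and ANXA2 (408 ± 16.1 to 488 ± 3.82 FPKM, limma adjusted p = 0.000441). HNRNPH1 and SNRNP70 RNA did not pass the test (limma adjusted p = 0.173 and 0.195).

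In the list of G2 and mitosis genes, all 21 host genes tested fell in RNA, with a median of -2.55 on the log2(FPKM + 1) scale and a range from -3.86 to -0.65. Their 42 events had a median inclusion difference of -0.0018, with 1 called lower. Of the 42, 9 reached an unadjusted p under 0.05, where the background was 9.57%, and 8 had groups that did not overlap, where it was 14.9%. The deepest of them, the 197-base exon of SKA2, a kinetochore protein, was at 0.462 ± 0.0250 in DMSO and 0.441 ± 0.0326 with palbociclib (SD, n = 3 each; edgeR adjusted p = 0.888). Among DNA replication and S phase genes, all 8 hosts fell, by a median of -1.93, and edgeR called 0 of their 16 events (5 at an unadjusted p under 0.05, 0 by DESeq2), with 4 that had groups apart. At a background of 0.312% called, a count of 0 among 16 events says nothing about the list. The 364-base exon of RFC5, a subunit of the clamp loader, was at 0.253 ± 0.0246 and 0.197 ± 0.0168 (SD, n = 3 each; edgeR adjusted p = 0.494).

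In the splicing lists, groups that did not overlap were more frequent than the background of 14.9%. They were 4 of 10 events in SR proteins, 23 of 57 in hnRNPs and other regulators and 5 of 23 in the core spliceosome. Of these, 3, 13 and 5 were higher and 1, 10 and 0 lower with palbociclib, against 512 and 597 over the whole set. Uneven splits were also seen elsewhere, 1 higher and 7 lower in G2 and mitosis and 13 and 2 in histone and DNA modifying enzymes. Events of the 3 splicing lists were also deeper, with medians of 371, 504 and 424 reads against 75.3 over the whole set. The part of depth in the share of groups apart was not tested. SRSF2, an SR protein, had a 104-base exon at 0.0943 ± 0.004 in DMSO and 0.109 ± 0.00277 with palbociclib (SD, n = 3 each; edgeR adjusted p = 0.512). HNRNPA2B1 had a 658-base exon at 0.516 ± 0.0736 and 0.584 ± 0.0233 (SD, n = 3 each; edgeR adjusted p = 0.324), with overlapping groups. HNRNPA1 had a 172-base exon at 0.0290 ± 0.00222 and 0.0313 ± 0.00252, and LUC7L3 a 193-base exon at 0.128 ± 0.00814 and 0.127 ± 0.0107 (SD, n = 3 each; edgeR adjusted p = 0.807 and 0.991). The host genes of the SR list divided into 0 that rose and 3 that fell of 6 tested, those of the hnRNP list into 6 and 8 of 26, and those of the core list into 5 and 4 of 13. Over all genes tested of the same lists, with or without such an exon, the counts were 1 and 7 of 13, 11 and 30 of 55, and 6 and 30 of 44. In the hnRNP and core lists the host genes thus had a larger share of rises than the whole list, and this difference was not tested.

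The remaining lists held 0 called events by edgeR and by DESeq2. At a background of 0.312% called, that is no result about lists of this size, and 9.57% of all tested events had an unadjusted p under 0.05. They were 17 events in nonsense-mediated decay and the exon junction complex (1 at an unadjusted p under 0.05), 67 in DNA damage response and repair (8), 68 in histone and DNA modifying enzymes (12), 22 in cell death and the p53 pathway (2), 32 in oestrogen receptor and luminal genes (5) and 34 in the CDK4/6, RB and cyclin D axis (6). Their medians of inclusion difference lay between -0.0054 and 0.0108. ACIN1, linked to the exon junction complex and called above, was in none of these lists. CHEK1, a checkpoint kinase, had a 224-base exon at 0.814 ± 0.0257 in DMSO and 0.867 ± 0.0055 with palbociclib, with groups that did not overlap (SD, n = 3 each; edgeR adjusted p = 0.28). The CHEK1 exon met the 5% criterion in the DMSO group only, where skipping was more frequent. RNPS1, of the exon junction complex, had a 188-base exon at 0.707 ± 0.0260 and 0.661 ± 0.0218 (SD, n = 3 each; edgeR adjusted p = 0.487). KDM2A, a histone demethylase, had a 122-base exon at 0.148 ± 0.0191 and 0.104 ± 0.00923 (SD, n = 3 each; edgeR adjusted p = 0.344). In CA12, an oestrogen-responsive carbonic anhydrase, the 85-base exon was at 0.856 ± 0.00646 and 0.842 ± 0.00989 (SD, n = 3 each; edgeR adjusted p = 0.737).

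The other exons among the 2 deepest of each list were not called either. Groups lay apart in POLB, a repair polymerase, whose 58-base exon was at 0.569 ± 0.0296 in DMSO and 0.643 ± 0.0246 with palbociclib (SD, n = 3 each; edgeR adjusted p = 0.546). They also lay apart in the 178-base exon of SETD5, at 0.0894 ± 0.0113 and 0.119 ± 0.0143, and in the 118-base exon of CCNL2, a cyclin that acts in splicing, at 0.0208 ± 0.00387 and 0.0334 ± 0.00192 (SD, n = 3 each; edgeR adjusted p = 0.512 and 0.186). The CCNL2 exon met the 5% criterion in the palbociclib group only, where its inclusion was higher. With another pair of neighbouring exons and fewer reads, the same CCNL2 exon differed by -0.0911, the opposite direction, and was not called. Groups overlapped in the exons of ETF1, MCM3, SMC4, BCL2L1, BCL2L13, PDZK1 and CCNL1 (edgeR adjusted p from 0.671 to 0.984).

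MDM4, an inhibitor of p53, has a 68-base exon whose skipping is known to give a short, unstable protein. Its inclusion level was 0.365, 0.314 and 0.421 in DMSO and 0.614, 0.540 and 0.522 with palbociclib. The groups did not overlap, and the difference of 0.192 did not pass the threshold on a mean of 147 reads per library (edgeR adjusted p = 0.229). The 61-base exon of CASP2, a caspase with a known short form, was at 0.0488 ± 0.0241 and 0.0662 ± 0.0592 (SD, n = 3 each; edgeR adjusted p = 0.872), and its groups overlapped.

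Marker genes matched the label of a luminal breast cancer line. All 9 luminal and epithelial markers were listed, at 41.9 to 3008 FPKM in single libraries, among them ESR1, GATA3 and KRT8. Of the other markers looked for, CD68 reached at most 0.174, TP63 0.113, COL1A2 0.469 and COL1A1 25.97 FPKM, and the rest had no row in the table used. Reads over skipped exon events with a mean of at least 20, where a read can serve several events, numbered 52133472 to 75211550 per library, and the frame-shifting events drew 49.98% to 50.9% of their reads from the skipping form in each library.

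In ATAC-seq, 175 of the 5891 exons, or 2.97%, overlapped an accessible region, against 2.81% of the frame-preserving exons. The overlap involved 159 peaks, of which the edgeR test called 9 more and 16 less accessible with palbociclib, where 5.41% and 6.46% of all 38121 peaks were called. Dropping palbociclib replicate 1 gave 5 and 10, dropping DMSO replicate 2 or 3 gave 5 more accessible, and dropping palbociclib replicate 3 gave 10 less accessible. Among the called exons, that of ATP5MK overlapped a peak, with 69.1, 84.4 and 81.2 CPM (library-scaled counts) in DMSO and 79.3, 77.6 and 78.2 with palbociclib. The groups overlapped (edgeR adjusted p = 0.987).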

How the data were processed

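Skipped exon events came from the authors' deposited rMATS table of junction and exon-body reads, with whole-number read counts and inclusion levels for 3 libraries per group in each cell, in the order the labels give. The submitters' processing notes name STAR 2.7.10b, fastp 0.23.2, Salmon 1.10.2 and GRCh38, and the rMATS version and annotation are not given in the sources used here. The table also holds the authors' p-values with an FDR and a difference of levels, a score. Levels computed here from the reads lay within 0.0005 of the deposited ones. A read across both junctions counts once as an inclusion read. RNA levels were FPKM made by the authors, per the submitters' processing notes with DESeq2 1.44.0. ATAC values were raw counts per peak that the authors made with featureCounts, per the file headers. The counts in peaks summed to 12830062 to 18250496 per library.

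Inclusion was tested over all 13469 events with edgeR 4.0.16 in R 4.3.3, with a term for each library, a term for the form and a form-by-treatment term. Both forms of a library took its total over both forms as library size. Each p was adjusted by Benjamini-Hochberg over all events. RNA was tested with limma 3.58.1 on log2(FPKM + 1) for genes averaging 0.5 FPKM or more, and peaks with edgeR after TMM. The peak comparison was added after the files were seen. Values in 1 group are means ± SD over 3 libraries. The scripts were tested on simulated data.

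The exons, the 11 gene lists and the rules were chosen with earlier results of these data known. Exons named were all those called, 1 event per exon, the 2 deepest per list, known alternative exons in 8 genes given in advance (5 held one), and 4 each way with the largest difference among those not called with at least 50 reads and groups apart. Of these last, 1 is not reported here. Alternatives were TMM, DESeq2 1.42.0, other read minimums, 1 event per exon, a replicate block, and leaving out each library. Added after seeing the data were junction reads only, column totals as library sizes, and the peak alternatives.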

Additional observations from a re-analysis of the deposited data

How the results depend on the processing

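Calls of higher and of lower inclusion, and calls of at least 0.1 in level, numbered 12, 10 and 5 with edgeR. With DESeq2 there were 9, 4 and 3, with TMM 16, 5 and 6, and with 50 or more reads on average 14, 16 and 8. A rarer form of at least 10% gave 16, 14 and 8, and 1 event per exon gave 12, 8 and 3. With no minimum share of the rarer form, over 78935 events, edgeR called 0, 0 and 0, with 141 of the frame-shifting events at an unadjusted p under 0.05. The cause was not tested. Junction reads only, an alternative chosen after seeing the data, gave 5, 6 and 1, and the SRSF6 exon reversed to a log2 odds change of -0.0835. Column totals as library sizes, also chosen after seeing the data, kept 20 of the 22 calls. Leaving out 1 library gave 6 to 11 higher, 1 to 9 lower and 1 to 5 of at least 0.1. With the replicate number as a block, there were 25, 25 and 13, and all 22 calls remained. Same-numbered libraries had correlations of deviations in inclusion of 0.033, 0.006 and 0.075, against -0.070 to 0.037 between other pairs. In RNA the values were 0.106, -0.005 and 0.088, against -0.139 to 0.051. The labels name no shared batch, and these values cannot tell whether the numbers stand for one. The exons called in every setting that tested them, other than the missing minimum and the junction reads, were the 107-base exon of EIF4A2 and those of HNRNPH1, SNRNP70 and NPEPPS. Host gene counts of 870 higher and 902 lower became 1244 and 676 with quantile normalization, and stayed between 715 and 889 higher and 780 and 913 lower under the other alternatives run. Peaks over the exons, 9 and 16, became 6 and 9 with DESeq2, and 5 to 8 and 10 to 12 when 1 library was left out. Inclusion of events with few reads could not be resolved at this depth, and exon-body reads cannot be assigned to 1 transcript form.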

Other observations

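Large differences without a call were found in shallow events, and they are given as values. Among events averaging 50 or more reads with groups that did not overlap, TMEM254-AS1, DIS3 and MIOS were among those with the largest rises. DIS3, a catalytic subunit of the RNA exosome, had a 68-base exon at 0.744, 0.870 and 0.651 in DMSO and 1.00, 0.979 and 0.956 with palbociclib (edgeR adjusted p = 0.0869). Inclusion was higher in each palbociclib library than in each DMSO library. MIOS, a regulator of mTORC1 signalling, had an 82-base exon that differed by 0.223 and TMEM254-AS1 a 490-base exon that differed by 0.329 (edgeR adjusted p = 0.385 and 0.453). The TMEM254-AS1 exon also met the 5% criterion in the DMSO group only.

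Within the same limits on reads and groups, the largest falls without a call were in OSER1-DT, DEPDC4, GPC1-AS1 and TRPS1. DEPDC4 had a 227-base exon at 0.729, 0.659 and 0.700 in DMSO and 0.500, 0.356 and 0.432 with palbociclib (edgeR adjusted p = 0.305). TRPS1, a transcription factor of the breast epithelium, had a 137-base exon at 0.566, 0.720 and 0.904 in DMSO and 0.415, 0.496 and 0.557 with palbociclib (edgeR adjusted p = 0.427). Its DMSO libraries were spread widely, and the highest palbociclib library lay just under the lowest DMSO library. OSER1-DT and GPC1-AS1, both non-coding, differed by -0.298 and -0.243 (edgeR adjusted p = 0.193 and 0.466).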
